A study of Mus musculus with 14 samples.

Results

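Mono- and dimethylation of lysine 4 of histone H3 (H3K4me1 and H3K4me2) were compared within wild-type (WT) mouse liver, to describe where each mark lies relative to the other and along genes. The members are all regions that the authors listed for the 2 marks in WT, 5905 for H3K4me1 and 54219 for H3K4me2, together 60124 of the 123145 regions in the 6 lists of the series. No region was selected by its values. The series is chromatin immunoprecipitation sequencing (ChIP-seq) of livers of C57BL/6 mice, WT or with inducible expression of the transcriptional co-activator YAP, with antibodies against both marks and the demethylase LSD1. Doxycycline for inducing YAP, 50 mg/L in drinking water for 10 days, is given in the labels of every sample, and whether WT mice drank it, their sex and their age are not given. Of the 14 libraries, 4 stand behind the lists described here, 2 replicates for each mark, and 2 are inputs. Both replicates of a mark share 1 list, so nothing measures their spread, read depth is unknown, and p-values are not reported. Intervals in parentheses after a share are 95% intervals (Wilson for shares, Newcombe for differences); they cover counting error only and treat regions or genes as independent, which neighbouring regions of 1 gene are not.

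Lysine 4 of histone H3 can carry 1, 2 or 3 methyl groups, which are added by enzymes of the Kmt2 and Setd1 family and removed by Kdm1 and Kdm5 enzymes. H3K4me1 is known from enhancers and from the shoulders of active promoters, and H3K4me2 from both enhancers and promoters, where it reaches beyond the start of transcription into the gene. Liver chromatin from whole tissue comes mostly from hepatocytes, with smaller shares from bile duct, endothelial, stellate and immune cells.

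A gene end here means within 1 kb of a RefSeq boundary, on either side, of a protein-coding gene, a gene body is the stretch more than 1 kb from both boundaries, and a region flanks another if the 2 share no base and lie less than 2 kb apart. The upstream sequences below, from RefSeq (GRCm38.p6, which has the mm10 coordinates of the lists), are examples of gene starts with H3K4me2. They are the 250 bases before the start of 2 genes with many H3K4me1 regions in the body and of 2 hepatocyte genes that had H3K4me2 at the start and no H3K4me1, all chosen after the values were seen. Apoa1 is 1.84 kb long and has no body by this definition, so it could hold no H3K4me1 there. CG dinucleotides are in capitals.
Zfand3, chr17:30004789-30005038, plus strand: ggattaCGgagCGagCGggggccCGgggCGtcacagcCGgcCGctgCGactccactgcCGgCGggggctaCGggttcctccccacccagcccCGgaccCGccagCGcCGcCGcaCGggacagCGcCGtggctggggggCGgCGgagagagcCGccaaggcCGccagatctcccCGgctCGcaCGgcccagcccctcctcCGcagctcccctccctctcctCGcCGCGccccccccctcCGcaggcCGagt
Shb, chr4:45530829-45531078, minus strand: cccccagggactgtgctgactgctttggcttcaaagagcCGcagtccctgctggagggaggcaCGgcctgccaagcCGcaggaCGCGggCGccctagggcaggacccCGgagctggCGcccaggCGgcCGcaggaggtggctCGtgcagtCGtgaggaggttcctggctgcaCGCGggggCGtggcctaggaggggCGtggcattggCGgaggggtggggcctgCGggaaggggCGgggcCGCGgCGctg
Alb, chr5:90460620-90460869, plus strand: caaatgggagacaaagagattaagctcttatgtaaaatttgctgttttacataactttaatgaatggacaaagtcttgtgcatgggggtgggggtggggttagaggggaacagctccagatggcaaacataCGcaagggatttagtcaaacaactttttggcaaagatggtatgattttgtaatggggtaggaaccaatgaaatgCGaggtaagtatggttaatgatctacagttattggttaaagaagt
Apoa1, chr9:46228380-46228629, plus strand: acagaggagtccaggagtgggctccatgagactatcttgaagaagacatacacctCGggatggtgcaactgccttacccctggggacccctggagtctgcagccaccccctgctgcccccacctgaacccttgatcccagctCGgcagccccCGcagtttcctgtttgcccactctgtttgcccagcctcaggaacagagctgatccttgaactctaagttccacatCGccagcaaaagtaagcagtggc
The Zfand3 stretch holds 32 CG and is 79.2% G or C, and the Shb stretch holds 22 CG and is 74.4% G or C. Alb, which encodes serum albumin, has 2 CG and 39.2% G or C there, and Apoa1, the main protein of high-density lipoprotein, has 4 CG and 58.0%. Neither gene stands for its class: windows of 300 bases, 50 longer than these stretches, had a median of 20 CG (quartiles 13 and 28) in genes with H3K4me2 at a boundary and no H3K4me1. None of the 4 holds TATAAA on either strand. H3K4me2 lay within 1 kb of the start of each of these genes, in regions of up to 3813 bp at Zfand3, 1069 bp at Shb, 3557 bp at Alb and 2644 bp at Apoa1. It covered 183 of the 250 bases at Shb and 182 at Apoa1, and none at Zfand3 and Alb, where it lay downstream.

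The 2 lists differed in number, length and strength. WT H3K4me1 regions covered 2.06 Mb and had a median length of 294 bp (quartiles 224 and 408, longest 2262), and WT H3K4me2 regions covered 52.2 Mb with a median of 571 bp (321 and 1256, longest 14515). The authors' signal, an enrichment value, ran from 1.60 to 4.68 for H3K4me1 and from 1.77 to 15.3 for H3K4me2. By the deposited q-values 1 H3K4me1 region and 52617 H3K4me2 regions (97.0%) were at 0.05 or below, and for 3986 H3K4me1 regions the deposited −log10 q was 0. No H3K4me1 region was listed on chromosome X or Y, where H3K4me2 had 954 and 9 regions. A place without H3K4me1 in this list is therefore a place where none was listed, and absence of the mark is not shown.

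More than 50% of the H3K4me1 regions lay on H3K4me2, whereas few H3K4me2 regions carried H3K4me1. Of the H3K4me1 regions 3120 of 5905 (52.8%, 51.6% to 54.1%) shared at least 1 bp with H3K4me2, and of the H3K4me2 regions 2603 of 54219 (4.801%, 4.62% to 4.98%) shared a base with H3K4me1. In bases, 51.4% of H3K4me1 was on H3K4me2. H3K4me2 covered 2.12% of the span of chromosomes 1 to 19, 3.01% of the bases inside genes away from their ends, and 5.93% of the bodies of the genes that hold H3K4me1. Within those bodies 51.8% of the H3K4me1 bases were on H3K4me2, far above the share of those bodies that it covered. That share is a mean over whole bodies, and nearer to the start H3K4me2 covered more, as given below.

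Most overlaps were small H3K4me1 regions nested in larger H3K4me2 regions. Of the 3184 overlapping pairs, 2218 (69.7%, 68.0% to 71.2%) had the H3K4me1 region wholly inside, 809 (25.4%) crossed an edge and in 157 (4.93%) the H3K4me2 region lay inside the H3K4me1 region. H3K4me1 regions on H3K4me2 were longer than the others, with medians of 317 bp (n = 3120) and 275 bp (n = 2785). The share on H3K4me2 went up with the authors' score, which is 10 times −log10 of the p-value, from 46.6% in the lowest 25% of H3K4me1 regions through 49.4% and 54.4% to 60.9% in the highest 25%, a difference of 14.3 percentage points (10.7 to 17.8). Regions with tied scores of 34, 40 or 46 were split between neighbouring groups. The median length of the groups went up too, from 279 through 281 and 294.5 to 342.5 bp, and the part of length was not tested. The median score was 40 (quartiles 34 and 46) both on and off H3K4me2. When only the higher-scoring 50% of both lists was kept, 34.1% of the H3K4me1 regions lay on H3K4me2, and with a reciprocal overlap of 50% it was 12.2%.

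Long H3K4me2 regions carried H3K4me1 more often than short ones, and the share depended on where they lay. Of the 968 H3K4me2 regions over 4000 bp, 299 (30.9%, 28.1% to 33.9%) carried H3K4me1, compared with 720 of 24178 (2.98%, 2.77% to 3.20%) of those up to 500 bp. At gene ends the share was 0.102% up to 500 bp, 0.111% over 500 and up to 1000 bp, 0.593% over 1000 and up to 2000 bp, 8.29% over 2000 and up to 4000 bp and 30.2% above that. Inside genes it was 5.17%, 8.36%, 12.5%, 18.4% and 34.6% over the same lengths. Short H3K4me2 regions thus carried H3K4me1 far more often inside genes than at their ends, and among those over 4000 bp the intervals of the 2 places overlapped (28.5% to 41.2% inside, 27.01% to 33.7% at ends). A longer region has more bases on which an overlap can fall. H3K4me2 regions at gene ends had a median length of 3415 bp and signal of 9.33 with H3K4me1 (n = 641), and 1092 bp and 6.44 without it (n = 20084). Inside genes the contrast was smaller, with 677 bp and 3.69 with H3K4me1 (n = 1863) and 432 bp and 3.52 without it (n = 21870). Over all H3K4me2 regions the median signal was 4.24 with and 4.21 without H3K4me1, and the median score was 86 in both.

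**Figure D1:**
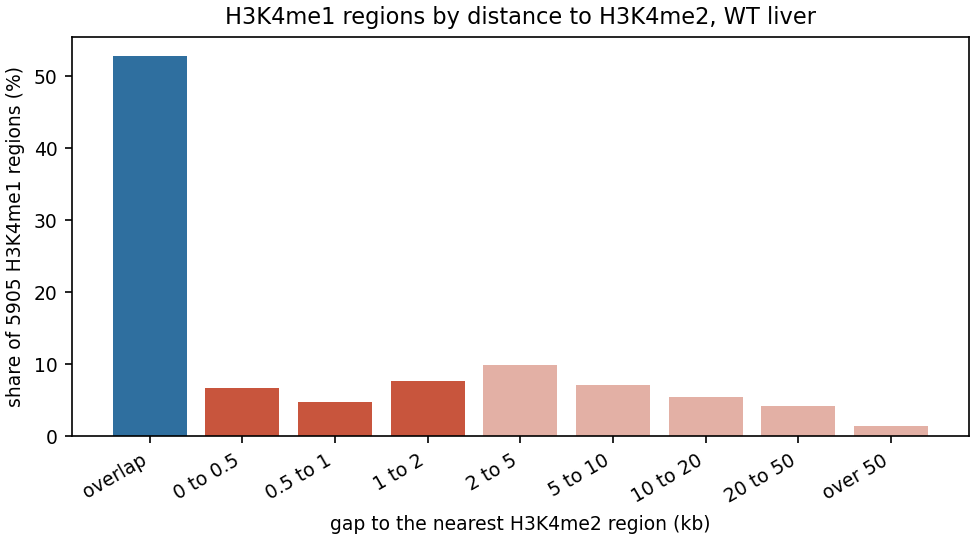
H3K4me1 regions of WT liver by the gap to the nearest H3K4me2 region. Bars give the share of the 5905 H3K4me1 regions in percent, blue for overlap (52.8%), dark red for gaps under 2 kb (19.1% together) and light red for larger gaps (28.0% together); gaps are in kb and the classes are not of equal width.

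H3K4me1 that did not overlap H3K4me2 was often close to it. Flanks, without overlap and less than 2 kb away, were 1129 H3K4me1 regions (19.1%, 18.1% to 20.1%), so 72.0% (70.8% to 73.1%) of the list lay on or beside H3K4me2. The gap had a median of 784 bp for flanks and of 3060 bp (quartiles 1051 and 9345) for all H3K4me1 regions off H3K4me2. Farther than 10 kb from any H3K4me2 region lay 653 H3K4me1 regions (11.1%, 10.3% to 11.9%). H3K4me2 was within 2 kb on both sides of 201 of the 1129 flanks (17.8%). Where the direction of the gene was known, the nearest H3K4me2 region lay toward the gene start for 462 of 818 flanks (56.5%, 53.1% to 59.8%).

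From the side of H3K4me2, 1517 regions (2.80%) had a flanking H3K4me1 region, and 1305 of these (86.0%, 84.2% to 87.7%) lay inside genes away from the ends, 121 (7.98%) at gene ends and 91 (6.00%) between genes. Flanks on both sides, the arrangement of a centre with shoulders, were found for 132 of the 1517 (8.70%, 7.39% to 10.2%). A single flank was found for 1236, 2 flanks for 236 and 3 flanks for 38, and 485 of the flanked regions also overlapped H3K4me1. H3K4me2 regions with 4 flanks included 718 bp in Gna12, a G protein subunit (chromosome 5, 140794490 to 140795207), neighbouring regions of 409 and 203 bp in Rbpms, an RNA-binding protein (chromosome 8, 33855134 to 33855542 and 33855619 to 33855821), and 244 bp in Rere (chromosome 4, 150334465 to 150334708). The Rbpms regions lie so close to each other that they share flanks.

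The marks lay in different places relative to genes. Of the H3K4me1 regions 93.1% (92.5% to 93.7%) were inside a gene beyond its ends, 98 (1.66%, 1.36% to 2.02%) were at gene ends and 5.22% between genes. H3K4me2 was inside genes for 43.8% (43.4% to 44.2%), at gene ends for 38.2% (37.8% to 38.6%) and between genes for 18.003%. Of the bases of chromosomes 1 to 19, 38.8% are inside genes, 3.07% at gene ends and 58.1% between genes. As a share of the bases there, H3K4me1 covered 0.206% inside genes, 0.0346% at gene ends and 0.00654% between genes, and H3K4me2 covered 3.01%, 21.3% and 0.511%. Coverage at gene ends was thus 7.08 times that inside genes for H3K4me2 and 0.168 times for H3K4me1, and coverage inside genes was 5.88 and 31.5 times that between genes. With gene ends widened to 5 kb, 70.3% of the H3K4me1 regions still lay inside genes and away from the ends.

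**Figure D2:**
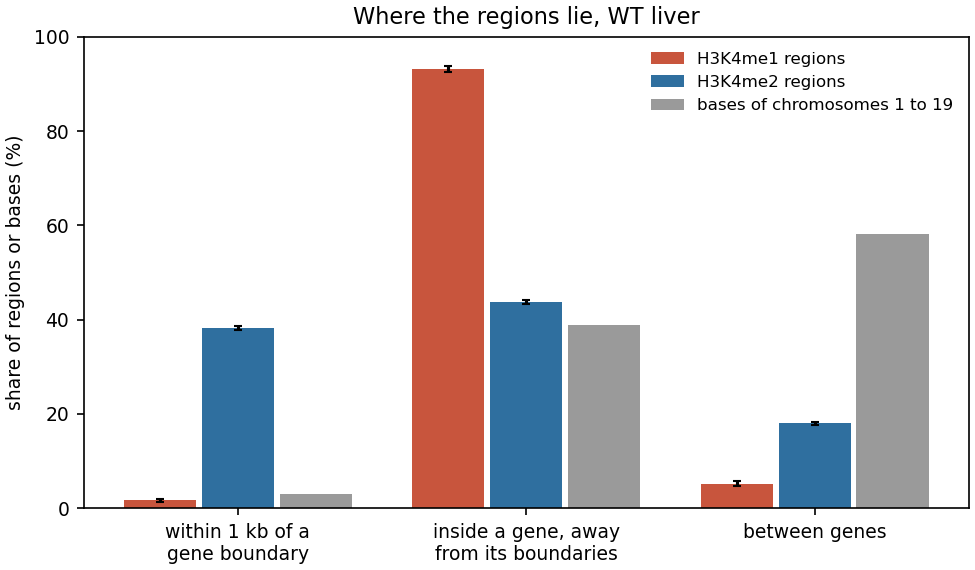
Where regions of both marks lie in WT liver. Bars give the share in percent of 5905 H3K4me1 regions (red), 54219 H3K4me2 regions (blue) and bases of chromosomes 1 to 19 (grey) at gene ends, inside genes and between genes, with 95% Wilson intervals for the regions; H3K4me1 is at 93.1% inside genes and 1.66% at gene ends, H3K4me2 at 43.8% and 38.2%.

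The few H3K4me1 regions at gene ends included 60 of 98 on H3K4me2 (61.2%, 51.3% to 70.3%). The highest-scoring lay at a boundary of Mroh2a and within Hjurp, a chaperone of the centromeric histone (chromosome 1, 88262732 to 88263026, score 67). It had no H3K4me2 for 4870 bp, and its signal was 2.63, below the H3K4me1 list's median of 2.89. It was followed by regions at Tspyl1 (chromosome 10, 34284126 to 34284739, score 66), a boundary of Zbed6 within Zc3h11a, a zinc finger protein of mRNA export (chromosome 1, 133656844 to 133657312), Rprd1b, a regulator of RNA polymerase II (chromosome 2, 158078832 to 158079296), and Gsap (chromosome 5, 21175883 to 21176069), the last 3 with a score of 59. The midpoint of the Gsap region was at -0.043 kb from the start of that gene. Between genes, 128 of 308 H3K4me1 regions (41.6%, 36.2% to 47.1%) were on H3K4me2, against 53.3% (52.0% to 54.6%) of those inside genes.

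Along the gene, H3K4me1 lay in the early part of the body but past the start. Direction was known for 79.9% of protein-coding genes, which held 4526 H3K4me1 and 30652 H3K4me2 midpoints, a midpoint in several genes being counted for each. Genes were divided into 10 equal parts from start to end. The first part held 23.9% (22.7% to 25.2%) of the H3K4me1 midpoints, the next 21.1%, the one after it 15.6% and the last 1.79% (1.44% to 2.22%). In total 80.9% (79.7% to 82.0%) lay in the first 50% of the gene, and H3K4me2 had 81.3% (80.8% to 81.7%) there, with overlapping intervals. What differed was the first of the 10 parts, which held 42.4% (41.9% to 43.0%) of the H3K4me2 midpoints. In the genes that hold H3K4me1 it held fewer of the H3K4me2 midpoints, 34.2% (33.2% to 35.2%). The median relative position, 0 at the start and 1 at the end, was 0.229 for H3K4me1, 0.139 for H3K4me2 and 0.196 for H3K4me2 in the genes that hold H3K4me1.

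In absolute distance, the H3K4me1 midpoint was a median of 13.3 kb (quartiles 5.39 and 34.6) from the start and the H3K4me2 midpoint 3.19 kb (1.29 and 14.4), or 11.6 kb in genes that hold H3K4me1. Within 1 kb of the start were 6 of 4526 H3K4me1 midpoints (0.133%, 0.0608% to 0.289%) and 5718 of 30652 H3K4me2 midpoints (18.7%, 18.2% to 19.1%). In genes that hold H3K4me1, 399 of 8644 H3K4me2 midpoints (4.62%, 4.19% to 5.08%) were there. H3K4me1 on H3K4me2 was nearer to the start than the rest of its list, with medians of 6.66 kb (n = 2450) and 23.6 kb (n = 2076). From 1 to 5 kb after the start lay 39.8% (37.9% to 41.8%) of the former and 3.42% (2.72% to 4.29%) of the latter. The nearest boundary of any protein-coding gene was a median of 12.07 kb from H3K4me1 and 2.52 kb from H3K4me2.

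**Figure D3:**
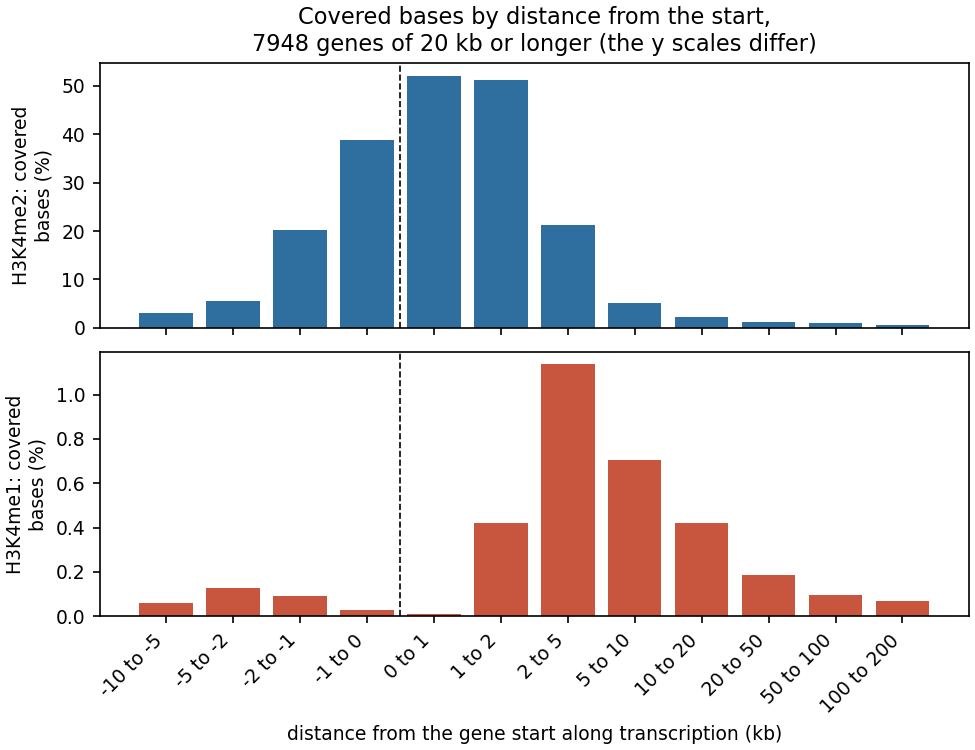
Bases covered by H3K4me2 (upper panel) and H3K4me1 (lower panel) by distance from the gene start in 7948 genes of 20 kb or longer with known direction, in percent of the bases of each distance class. The dashed line is the start, negative distances are before it and the y scales differ; H3K4me2 peaks at 52.1% in the first kb and H3K4me1 at 1.14% from 2 to 5 kb.

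Coverage by distance placed a peak of H3K4me1 downstream of the peak of H3K4me2. In 7948 genes of 20 kb or longer, H3K4me2 covered 38.7% of the bases in the kb before the start, 52.1% and 51.3% in the first and the next kb after it, 21.3% from 2 to 5 kb and 5.13% from 5 to 10 kb. H3K4me1 covered 0.0284% in the kb before the start and 0.0101% in the first kb after it. It then covered 0.421% from 1 to 2 kb, 1.14% from 2 to 5 kb, 0.703% from 5 to 10 kb, 0.420% from 10 to 20 kb and 0.188% from 20 to 50 kb. Both marks covered more after the start than before it, and for H3K4me1 the ratio of the stretch from 2 to 5 kb after to the same stretch before was 8.76, against 3.89 for H3K4me2. Upstream of the start, H3K4me1 from 2 to 5 kb covered 0.130%. The share of H3K4me1 bases that were on H3K4me2 was 74.8% in the first kb, where H3K4me1 covered 0.806 kb in all, and 98.7% at 1 to 2 kb. It was lower in each class from there to 20 to 50 kb, with 89.5% at 2 to 5 kb, 56.5% at 5 to 10 kb, 40.4% at 10 to 20 kb and 29.1% at 20 to 50 kb. At 50 to 100 kb it was 31.3% and at 100 to 200 kb 25.1%. In the 1197 of these genes with H3K4me1 in the body and H3K4me2 at a boundary, H3K4me2 itself covered far more near the start. There it covered 92.0% of the bases at 1 to 2 kb, 58.0% at 2 to 5 kb, 16.2% at 5 to 10 kb and 6.42% at 10 to 20 kb. Of the H3K4me1 bases in these classes, 99.96%, 90.3%, 55.6% and 39.7% were on H3K4me2.

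At least 1 H3K4me1 region lay in the body of 1813 of 21883 protein-coding genes (8.28%), and H3K4me2 lay at a boundary of 12568 (57.4%). Both held for 1687 genes (7.71%). Of the genes with H3K4me1 in the body 93.1% (91.8% to 94.1%) had H3K4me2 at a boundary, compared with 54.2% (53.5% to 54.9%) of the other genes, a difference of 38.8 percentage points (37.4 to 40.1). Read from H3K4me2, H3K4me1 was in the body of 13.4% (12.8% to 14.0%) of the genes with H3K4me2 at a boundary and of 126 of 9315 (1.35%, 1.14% to 1.61%) of the genes without. Where direction was known, the boundary with H3K4me2 was the start alone in 1255 of 1363 genes with both marks (92.1%, 90.5% to 93.4%), both boundaries in 98 and the end alone in 10.

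Gene length moved with these counts. Genes with both marks had a median length of 58.7 kb (n = 1687), those with H3K4me2 at a boundary only 18.97 kb (n = 10881) and those with neither 9.75 kb (n = 9189). H3K4me1 was in the body of 0.631% of genes under 10 kb, 3.95% from 10 to 20 kb, 10.8% from 20 to 50 kb, 21.7% from 50 to 100 kb, 23.4% from 100 to 200 kb and 17.8% above. Within each class, genes with H3K4me1 had H3K4me2 at a boundary more often than the others, by 26.9 percentage points (22.2 to 31.1) from 100 to 200 kb at the least and by 58.9 points (51.7 to 60.0) under 10 kb at the most. Under 10 kb this rests on 50 genes with H3K4me1, and the others there include genes too short to have a body. The other genes also include those of chromosomes X and Y, where no H3K4me1 was listed. Weighted to the lengths of the genes with H3K4me1, the difference was 31.6 points.

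**Figure D4:**
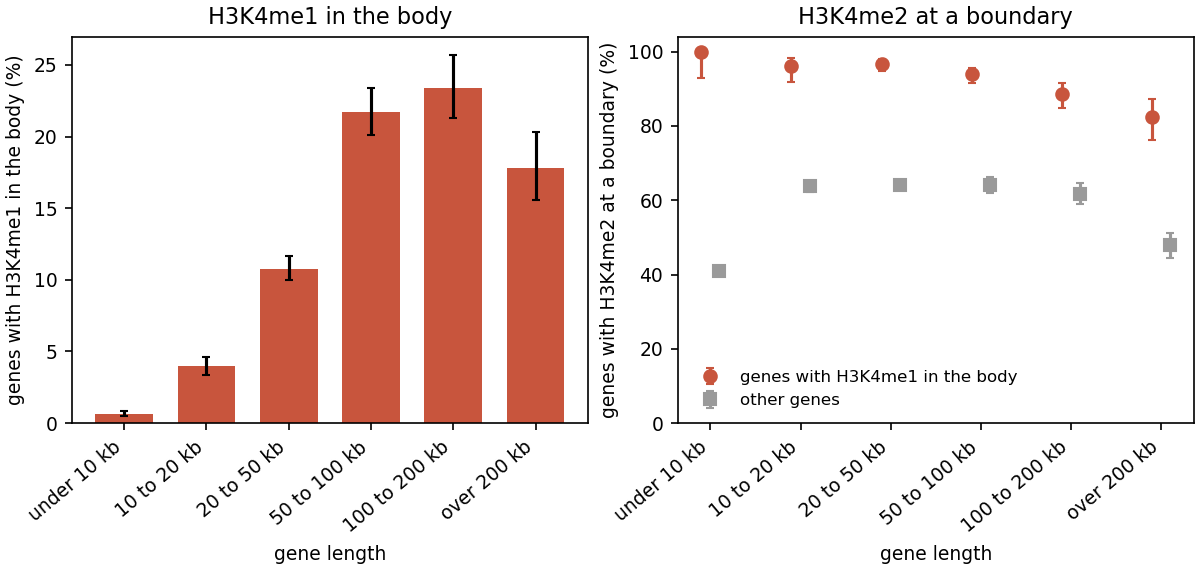
Genes by length in WT liver. Left, the percent of protein-coding genes with H3K4me1 in the body, from 0.631% under 10 kb to 23.4% at 100 to 200 kb; right, the percent with H3K4me2 at a boundary among genes with H3K4me1 in the body (red circles) and among other genes (grey squares), which is higher for the former in all 6 classes. Error bars are 95% Wilson intervals.

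Genes with both marks also carried more H3K4me2. Among genes of 20 kb or longer with H3K4me2 at the start, the longest H3K4me2 region at the start had a median of 2636 bp (quartiles 1938 and 3528, n = 1190) with H3K4me1 in the body and 1835 bp (1176 and 2485, n = 4116) without it. The median number of H3K4me2 regions in the body was 3 and 1, and the median gene length 65.6 and 43.9 kb. Within each length class the order of the start region lengths was the same, for example 2962 against 1892 bp from 20 to 50 kb (n = 428 and 2313). In the promoter windows of the reference table, which run from 250 bases before the start to 50 after it, the median number of CG was 26 (quartiles 18 and 35) in genes with both marks and 20 (13 and 28) in genes with H3K4me2 at a boundary only, and the median G and C content 65.3% and 60.3%. For genes of 20 kb or longer the medians were 27 and 22 CG. At least 1 CG is in 94.8% of all 17491 windows, and TATAAA, on either strand, in 13.3% of them, in 6.16% of those of genes with both marks and in 7.48% with H3K4me2 at a boundary only. For genes of 20 kb or longer the order of the last 2 shares was the other way, with 6.10% and 5.85%.

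H3K4me1 regions of 1 gene came in series. Of the 1813 genes 792 had 1 region in the body, 1021 had at least 2, 347 at least 5 and 112 at least 10, and these 112 held 1569 regions (26.6%, 25.5% to 27.7%, of the list). Neighbouring midpoints in a gene were a median of 2.15 kb apart (quartiles 0.967 and 6.07). In genes with both marks the first midpoint was a median of 4.58 kb (2.73 and 13.0) after the start.

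The 10 genes with the most H3K4me1 regions had between 23 and 32, and differed in how many of them were on H3K4me2. Rere, a transcriptional co-repressor (chromosome 4, 150281511 to 150621966), had 32 regions, of which 18 were on H3K4me2, 12 flanked it and 2 lay farther. Its H3K4me2 at the start reached 1.83 kb into the gene, and its H3K4me1 ran from 51.1 to 313 kb. Zfand3, a zinc finger protein (chromosome 17, 30005039 to 30210823), had 31 regions, 12 of them on H3K4me2 and 13 farther than 2 kb from it. Here H3K4me2 from the start reached 4.31 kb into the gene and H3K4me1 began at 1.36 kb and ended at 140 kb, with 24 regions in the first 50% of the gene. Hipk2, a nuclear kinase (chromosome 6, 38687512 to 38876331), had 25 regions between 3.11 and 95.8 kb, 24 of them in the first 50% of the gene, and 8 on H3K4me2. In Susd6 (chromosome 12, 80790532 to 80880833) 19 of 23 regions lay farther than 2 kb from H3K4me2, and 2 were on it.

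Other genes of this kind had most H3K4me1 on H3K4me2. In Daam1, a formin that assembles actin filaments (chromosome 12, 71830950 to 71992376), 19 of 24 regions were on H3K4me2, and in Shb, an adaptor protein of tyrosine kinase signalling (chromosome 4, 45423276 to 45530828), 17 of 24. Shb had 28 H3K4me2 regions in the body, which covered 26.6% of it, and Daam1 had 24, which covered 15.0%. Ankrd11, a chromatin regulator (chromosome 8, 122883321 to 123042284), stood on the other side with 5 of 25 on H3K4me2 and 13 farther than 2 kb. Mtss1, an actin-binding membrane protein (chromosome 15, 58941234 to 59083956), had 13 of 28 on H3K4me2 and Nfib, a transcription factor of the nuclear factor I family (chromosome 4, 82290173 to 82506751), 11 of 23. The share of a gene's H3K4me1 on H3K4me2 thus ran from 2 of 23 in Susd6 to 19 of 24 in Daam1.

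**Figure D5:**
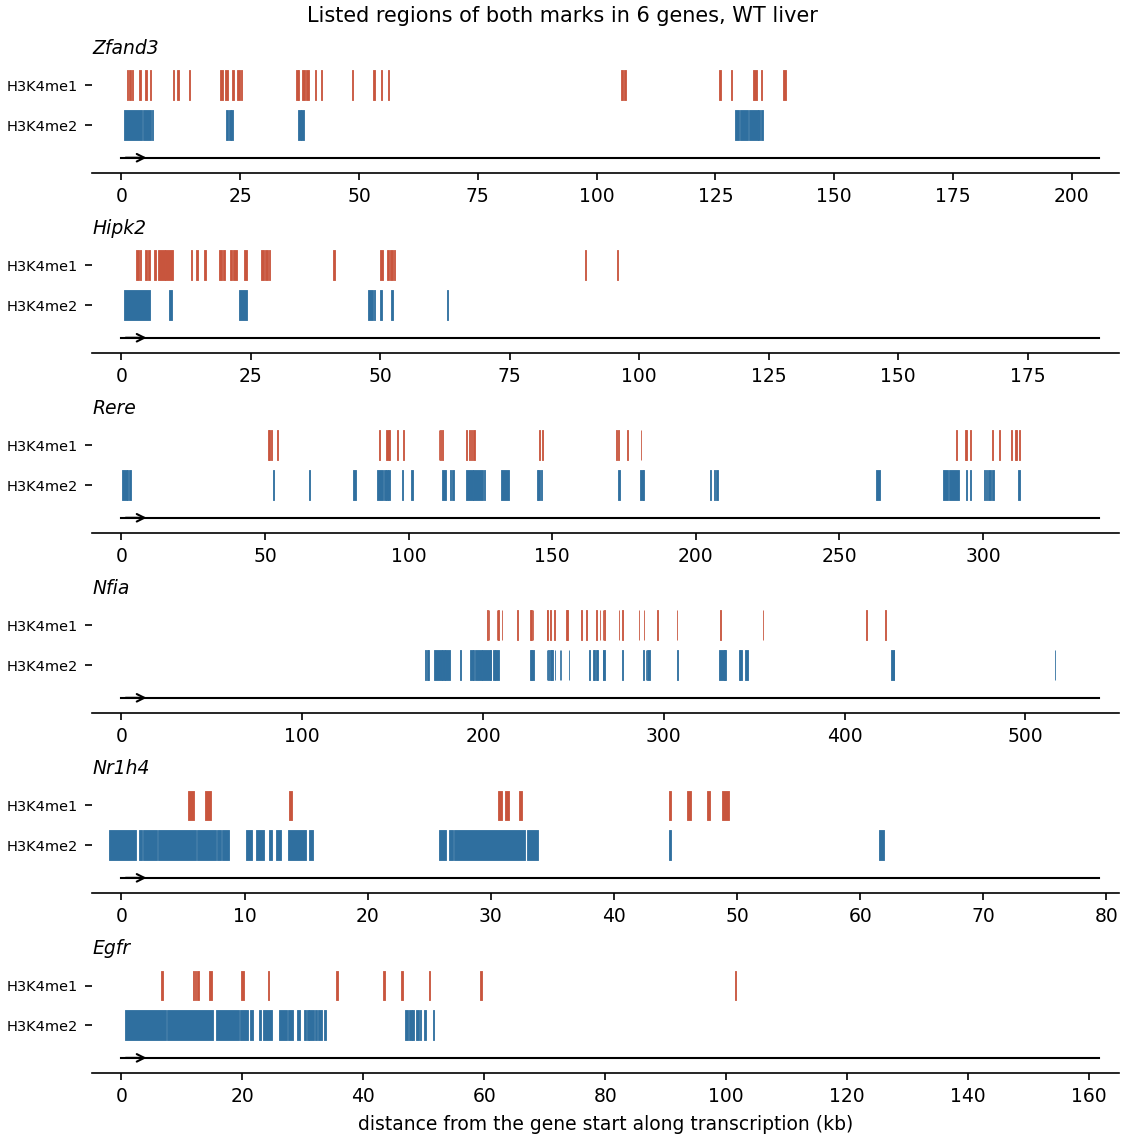
Listed regions of H3K4me1 (red) and H3K4me2 (blue) in 6 genes of WT liver, by distance in kb from the gene start along transcription; the black line is the gene and the arrow its direction. In Zfand3 and Hipk2 the first H3K4me1 region lies within the H3K4me2 at the start, in Rere H3K4me1 begins far inside the gene and in Nfia both marks do, and in Nr1h4 and Egfr H3K4me2 covers much of the early body.

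H3K4me1 covered up to 30.9% of a body among genes of 10 kb or longer with at least 3 regions. Hnrnpu, a nuclear RNA-binding protein (chromosome 1, 178321108 to 178338891), came first with 9 regions over 30.9% of its body, all on H3K4me2, which covered 60.6%. Hjurp (chromosome 1, 88258856 to 88277644) had 10 regions over 20.7%, of which 2 were on H3K4me2, which covered 3.59% of its body. The signals of these 10 regions ran from 1.60, the lowest of the list, to 2.63, and the list's median was 2.89. Ccnl1, a cyclin of splicing (chromosome 3, 65945908 to 65962029), had 6 regions over 19.03%, all on H3K4me2. Birc2, an inhibitor of apoptosis, had 18.05%, Ywhaz, a 14-3-3 adaptor protein, 17.6%, and Tra2b, a splicing regulator, 16.3% of the body covered, with all of their 5, 10 and 7 regions on H3K4me2. Eif4ebp2, a repressor of translation initiation, followed with 16.0%, Abhd17c, a depalmitoylating enzyme, with 15.9%, Csnk1a1, a casein kinase, with 15.3% and Snrk, a kinase related to the AMP-activated kinase, with 14.8%. Hjurp was the only one of these 10 genes with more than 50% of its H3K4me1 regions off H3K4me2.

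H3K4me1 regions with the highest scores in genes included those in Man1a2, a mannosidase of the Golgi (chromosome 3, 100682445 to 100682699, score 93), Zhx3, a zinc finger and homeobox protein (chromosome 2, 160859563 to 160860099), Kdm3b, a demethylase of lysine 9 of histone H3 (chromosome 18, 34785594 to 34785834), and Ssbp3 (chromosome 4, 107004609 to 107004828), the last 3 with a score of 88. The region in Man1a2 was on H3K4me2, that in Zhx3 was 195 bp and that in Kdm3b 1876 bp away from it, and that in Ssbp3 was 15172 bp away. The deposited −log10 q of these 4 was 1.24, a q just above 0.05. Other high-scoring regions on H3K4me2 lay in Adipor2, an adiponectin receptor (chromosome 6, 119377026 to 119377876, score 84), and Mtss1 (chromosome 15, 59019603 to 59020045, score 80).

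The longest H3K4me2 regions at a boundary of genes with H3K4me1 were between 8680 and 10009 bp. The longest began at the start of Acsl1, which activates fatty acids (chromosome 8, 46471072 to 46481080), and reached 10.0 kb into the gene. Its 5 H3K4me1 regions lay past this, between 15.6 and 26.3 kb, all on other H3K4me2 regions. Tsc22d2 followed with 10003 bp, Mtss1 with 9281 bp, Irs1, the substrate of the insulin receptor, with 8910 bp, and Il6st, the shared receptor subunit of the interleukin 6 family, with 8680 bp. In Il6st the 4 H3K4me1 regions lay from 3.08 to 7.72 kb, before the end of the H3K4me2 at 8.81 kb, so here H3K4me1 was nested in the H3K4me2 of the start.

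Of the 126 genes with H3K4me1 in the body and no H3K4me2 at a boundary, 121 had H3K4me2 in the body, and of the 107 with known direction 84 (78.5%, 69.8% to 85.2%) had H3K4me2 within 1 kb of a RefSeq start of the gene away from its boundaries. The nuclear factor I gene Nfia (chromosome 4, 97578066 to 98118876) had 32 H3K4me1 regions from 202 to 423 kb and 48 H3K4me2 regions from 168 kb on. Its only start in the table had no H3K4me2 within 1 kb. Mbnl1, a splicing regulator (chromosome 3, 60472559 to 60629750), had 20 H3K4me1 regions from 26.7 to 138 kb, Tnrc6a, a protein of microRNA silencing (chromosome 7, 123031101 to 123195296), 11 from 97.3 to 131 kb, and Adcy9, an adenylate cyclase (chromosome 16, 4284886 to 4437236), 10 from 19.6 to 60.9 kb. These 3 genes had H3K4me2 at a RefSeq start away from their boundaries. Nr3c1, the glucocorticoid receptor (chromosome 18, 39410545 to 39519421), had 22 H3K4me1 regions, 14 of them on H3K4me2, and its direction is not in the table.

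Gene lists of liver cell types and functions showed where each mark stood in known genes, beside 8.28% of all genes with H3K4me1 in the body and 57.4% with H3K4me2 at a boundary. Of 30 hepatocyte identity genes 29 had H3K4me2 at a boundary and 5 had H3K4me1, which were all transcription factors. Nr1h4, the bile acid receptor (chromosome 10, 89454234 to 89533645), had 10 H3K4me1 regions from 5.66 to 49.1 kb, 7 of them on H3K4me2, and 18 H3K4me2 regions over 24.1% of its body. Nr5a2, a nuclear receptor of bile acid and lipid metabolism (chromosome 1, 136842562 to 136960448), had 7 from 5.95 to 62.9 kb, 3 on H3K4me2 and 4 flanking it. Prox1, Onecut1 and Ppara had 1 each, although H3K4me2 covered 32.6% of the body of Ppara in 27 regions. The secreted plasma protein genes of the list, among them Alb, Fga and Ttr, had H3K4me2 at a boundary and no H3K4me1. Many of them are short, and the list's median length was 11.99 kb, in a class in which 3.95% of all genes had H3K4me1. Cps1, the first enzyme of the urea cycle, is 109 kb long and had 9 H3K4me2 regions over 13.2 kb of its body and no H3K4me1. Hnf4a, the only gene of the list without H3K4me2 at a boundary, had 11 H3K4me2 regions in the body and H3K4me2 at a RefSeq start away from its boundaries.

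Genes of liver metabolism had the same number with H3K4me1 as the hepatocyte list. H3K4me2 was at a boundary of 28 of 30 liver metabolism genes and H3K4me1 in the body of 5, among them 3 regions in Hmgcs1, an enzyme of cholesterol synthesis, 2 in Abcb11, the bile salt export pump, and 1 each in Cpt1a and Cyp27a1. All 3 regions of Hmgcs1 were on H3K4me2 and lay from 5.17 to 7.15 kb after the start. Of 18 genes zoned along the liver lobule 15 had H3K4me2 at a boundary and 3 had H3K4me1, Znrf3 with 3 regions and Rnf43 and Pigr with 1 each. Znrf3 and Rnf43 encode ubiquitin ligases that limit Wnt signalling.

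Receptor genes held the most H3K4me1 of the lists, with 90 regions in 11 of 20 genes, 17 of which had H3K4me2 at a boundary. The list's median length was 108 kb, and 23.4% of all genes of 100 to 200 kb had H3K4me1. Nr3c1 had 22 regions, Insr, the insulin receptor (chromosome 8, 3150922 to 3279649), 18, Egfr, the epidermal growth factor receptor (chromosome 11, 16752203 to 16913907), 13, and Ghr, the growth hormone receptor (chromosome 15, 3317755 to 3583352), and Thrb, a thyroid hormone receptor, 9 each. In Egfr the 13 regions lay from 6.78 to 102 kb after the start, and 7 of them were on H3K4me2. In Ghr the 9 regions lay at a median of 81.6 kb after the start, and 6 of them were farther than 2 kb from H3K4me2. In Insr 6 of 18 were on H3K4me2 and 9 lay farther than 2 kb from it. Met, the receptor of hepatocyte growth factor, had 6, Il6st 4, Lifr 3, and Prlr, Il6ra and Esr1 2 each. Igf1r, which is 281 kb long, Fgfr2 and Fgfr4 were among the 9 genes without H3K4me1.

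Markers of the other liver cell types had few H3K4me1 regions. H3K4me2 was at a boundary of 11 of 16 biliary and progenitor genes, 6 of 16 endothelial, 5 of 14 stellate, 3 of 12 macrophage and 2 of 12 lymphocyte genes. Markers with no H3K4me2 at a boundary or in the body included Krt7, Krt19, Pecam1, Cdh5, Lyve1, Adgre1, Clec4f, Csf1r, Ptprc and Cd3e, whereas Epcam, Sox9, Kdr, Tek, Flt1, Eng and Tie1 had it at a boundary. H3K4me1 was listed in the bodies of 2 of these 70 markers, with 2 regions in Notch2 and 1 in Stab2, a scavenger receptor of sinusoidal endothelium. Among all genes the share was 8.28%, with 3.95% from 10 to 20 kb, 10.8% from 20 to 50 kb and 21.7% from 50 to 100 kb. The median lengths of these marker lists ran from 10.5 kb (lymphocyte) to 53.7 kb (endothelial). Chromatin was from whole tissue, so a mark that is present in few cells and one that is weak in many cannot be told apart. Among 20 very long genes known for roles in brain or muscle, with a median length of 1521 kb, 2 had H3K4me2 at a boundary and 2 had H3K4me1, Ptprd with 3 regions and Kcnip4 with 1. Of all genes over 200 kb, 17.8% had H3K4me1. All 20 are longer than the longest receptor gene, Esr1, which is 394 kb long, and the part of length in these counts was not tested.

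Genes for the enzymes of the mark and target genes of YAP held H3K4me1 in 13.3% and 13.6% of their members, beside 8.28% of all genes and 10.8% of all genes of 20 to 50 kb, the class of the median length of both lists. Of 15 genes for H3K4 methyltransferases and demethylases 14 had H3K4me2 at a boundary and 2 had H3K4me1, Kdm5b, a demethylase of H3K4, with 3 regions and Kmt2c, which writes H3K4me1, with 2. Kdm1a, which encodes LSD1, had 2 H3K4me2 regions in the body and no H3K4me1. Of 22 target genes of YAP and its TEAD partners 16 had H3K4me2 at a boundary and 3 had H3K4me1, Asap1 with 3 regions and Lats2 and Nuak2 with 1 each.

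LSD1 removes methyl groups from both forms. Most of its regions were on H3K4me2 and few on H3K4me1, whose list covers far fewer bases. H3K4me2 covered 2.12% and H3K4me1 0.0847% of the span of chromosomes 1 to 19. Of 1500 WT LSD1 regions 1085 (72.3%, 70.0% to 74.5%) were on H3K4me2 and 11 (0.733%, 0.410% to 1.31%) on H3K4me1. Of the H3K4me1 regions, 12 of 5905 (0.203%, 0.116% to 0.355%) shared a base with LSD1. Among H3K4me2 regions inside genes, 16 of 1863 with H3K4me1 (0.859%) and 290 of 21870 without it (1.33%) had LSD1, a difference of -0.47 percentage points whose interval (-0.83 to 0.08) includes 0.

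In YAP livers, which had 6274 H3K4me1 and 51676 H3K4me2 regions, relative position along genes was close to that in WT, and absolute distance and location were not. The first 50% of the gene held 79.5% (78.3% to 80.6%) of the YAP H3K4me1 midpoints, and their median relative position was 0.234 against 0.229 in WT. Their median distance from the start was 15.5 kb (14.8 to 16.3) against 13.3 kb (12.6 to 14.1). Inside genes, more than 1 kb from their boundaries, lay 89.0% (88.2% to 89.8%) of the YAP regions and 93.1% of the WT regions, and between genes 8.97% (8.29% to 9.71%) and 5.22% (4.68% to 5.81%). H3K4me1 lay on H3K4me2 less often, for 42.0% (40.8% to 43.3%) of its regions, so that WT was higher by 10.8 percentage points (9.04 to 12.6). The share of flanks was 20.8%, and the difference of WT minus YAP was -1.68 points (-3.10 to -0.26). The YAP list had fewer H3K4me1 regions with a deposited −log10 q of 0, 37.9% against 67.5% in WT. H3K4me2 regions covered 49.0 Mb in YAP and 52.2 Mb in WT. The part of either in the differences was not tested. Replicate spread is unknown for both genotypes, so whether these differences exceed it cannot be said.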

How the data were processed

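ChIP-seq of mouse liver was analysed from deposited region lists. The submitters' processing notes name mm10 as the build, and deepTools 3.3.0, bedtools 2.26.0, Picard 1.126, SAMtools 1.7, BWA and Trimmomatic 0.39 as tools. How regions were called, and whether inputs were used, is not given in the sources used here. Chromatin was cut with micrococcal nuclease, which prefers linker DNA, and libraries had 15 cycles of PCR, per the labels' protocols. Per the labels, both replicates share 1 list, so the authors combined them before deposit. In the lists of both marks, the score deposited by the authors equals −log10 of the p-value multiplied by 10 and cut to a whole number. The deposited −log10 p-values start at 2.05, and −log10 q-values are given beside them. The deposited signal is the authors' enrichment value, of unstated definition. Of LSD1 only positions were used, not the deposited score. Names number regions up to 10563 for WT H3K4me1 and 64805 for WT H3K4me2, so both lists are parts of longer ones.

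Regions were compared on chromosomes 1 to 19, X and Y by an overlap of at least 1 bp. LSD1 regions that touched were merged. Gene positions came from a RefSeq gene table of GRCm38.p6 with 21883 protein-coding genes, and direction from a RefSeq promoter table that matched 79.9% of them (none on chromosome 18). No genome was used, so exons and introns were not told apart. Python 3.11.15, numpy 2.4.6, pandas 2.3.3, scipy 1.17.1 and matplotlib 3.10.9 were used; overlaps, flanks and gene classes were checked on simulated regions, with bedtools 2.31.1 for the overlaps. The members, the 12 gene lists (225 genes, all found) and the settings were chosen with earlier results of these data known.

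Named were genes without a predicted-gene symbol: the 10 with the most H3K4me1 regions in the body and the 10 with the highest covered share, the 5 highest-scoring H3K4me1 regions in genes, on H3K4me2 and at gene ends, the 5 H3K4me2 regions with the most flanks, the 5 longest at a boundary of a gene with H3K4me1, the 5 genes with the most H3K4me1 and no H3K4me2 at a boundary, and up to 4 genes per list; ties went by score, signal and symbol. Other genes of the lists, such as Cps1, Hnf4a, Met and the markers of other cell types, were named after their values were seen. A few items that the rule selects are not reported here. Alternatives varied the overlap rule, windows, gene set and list threshold.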

Additional observations from a re-analysis of the deposited data

How the results depend on the processing

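Of 39 alternatives 14 kept the value within its counting interval or 1.5 times the count, and 25 moved it. Shares, distances and counts cannot be negative, so only the difference in boundary H3K4me2 could change sign, and it did not. The share of H3K4me1 on H3K4me2, 52.8%, was 49.3% when 50% of the H3K4me1 region had to overlap, 12.2% with a reciprocal overlap of 50%, 34.1% in the higher-scoring 50% of both lists and 60.2% for H3K4me1 regions with a −log10 q above 0. The share of flanks, 19.1%, was 11.5% with a window of 1 kb, 29.0% with 5 kb, 16.6% in the higher-scoring 50% of both lists, 17.2% with a −log10 q above 0 and 16.4% when regions within 1 kb were joined. H3K4me1 lay inside genes for 70.3% with gene ends of 5 kb, 94.1% in the higher-scoring 50% and 94.6% with a −log10 q above 0. H3K4me2 lay at gene ends for 32.0% with 500 bp, 64.9% with 5 kb, 44.3% with all annotated genes, 26.7% by midpoint and 59.3% in the higher-scoring 50%. In the higher-scoring 50% most H3K4me2 regions were thus at gene ends, whereas in the full list more were inside genes (43.8%) than at ends (38.2%). The share in the first 50% of the gene was 84.1% with 1 mean position per gene, and the median distance to a boundary 8.72 kb with all annotated genes. Genes with both marks numbered 890 with a −log10 q above 0 and 960 with at least 2 H3K4me1 regions. The difference in boundary H3K4me2 was 34.3 points with 5 kb, 59.4 with all annotated genes, 41.1 in the higher-scoring 50% of both lists and 31.6 within classes of gene length. Widening or narrowing a window or an overlap rule moves a share by construction, and keeping fewer H3K4me2 regions can only remove overlaps with them. The cause of the other changes was not tested. No paired analysis was possible because 1 list stands for both replicates and carries no replicate numbers; replicates could not be left out for the same reason. Depth is unknown, and the WT H3K4me1 list, with 1 region at a q of 0.05 or below, limits what the lack of a listed region can show.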
